A study of Mus musculus with 1479 samples.

Results

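Integrins are receptors in the cell membrane that hold stromal cells to the matrix around them, and 10 of the genes that encode them were followed here through the fibroblasts and vascular mural cells of the mouse urinary bladder. The 10 genes were named by symbol, as the matrix receptors of these cells, and their rows were taken from a table of 46517 gene rows. They comprised 7 alpha subunits (Itga1, Itga5, Itga7, Itga8, Itga9, Itga11 and Itgav) and 3 beta subunits (Itgb1, Itgb3 and Itgb5), and all 10 had reads. Another 17 integrin genes of the table served for comparison.

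Single cells came from adult male mice aged 10 to 20 weeks and were sequenced with Smart-seq2, a full-length method without molecular identifiers. The 1479 cells belonged to 5 mouse lines. PdgfrbGFP (54.8% of the cells), Cspg4dsRED (13.7%) and Acta2GFP (8.72%) carry transgenes in which a fluorescent protein follows the promoter of the named gene. PdgfraGFP (9.94%) carries a nuclear green protein knocked into Pdgfra, and C57BL6 (12.8%), the strain to which the reporters had been backcrossed, has no reporter and was sorted with antibodies. No line was treated. The sort excluded cells with the endothelial protein CD31 and gathered cells with a reporter or with a PDGF receptor, so the share of a cell type among the sorted cells is not its share in the bladder, and elastase was added to the dissociation of Acta2GFP bladders alone. The labels give each cell 1 of 11 cluster numbers, which the authors had derived from these same counts. The study took cluster 10 as vascular mural cells, the pericytes and smooth muscle cells of vessels. It made up 8.45% of the cells, of which 65 came from Cspg4dsRED, 45 from PdgfrbGFP, 12 from Acta2GFP and 3 from C57BL6. Cluster 5 (76 cells) was described as fibroblasts beneath the epithelium, and most of the others as fibroblasts too. Cluster 4 (23 cells) was left undefined, and is counted here among the 9 other fibroblast clusters (1278 cells).

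An integrin is a pair of 1 alpha and 1 beta subunit, and the alpha subunit largely sets which matrix protein the pair holds. Itgb1 encodes the beta subunit that can join each of the 7 alpha subunits. Itga1 and Itga11 encode subunits of collagen receptors, Itga7 of a laminin receptor, Itga5 of the classical fibronectin receptor, and Itga8 of a receptor for nephronectin and other proteins with the motif Arg-Gly-Asp. Itga9 takes part in binding tenascin-C and related ligands. Itgav joins Itgb1, Itgb3 or Itgb5 into receptors for vitronectin, fibronectin and latent TGF-beta. In smooth muscle, integrins with Itga7, Itga8 or Itga1 are known components of the contact with the basement membrane.

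Sequence upstream of the RefSeq gene start (GRCm38.p6) was at hand for 8 of the 10 genes, and Itga7 and Itgb3 had no entry. The window of Itga9 lies inside the gene as GENCODE M21 places it (gene start at 118606690 on chromosome 9, window start at 118711442). The 250 bases before the start are printed for the 3 genes with an entry that differed in the tests below, and for Itgb5, which held the most GC boxes. Capitals mark a GC box, that is GGGCGG or its reverse complement CCGCCC, and the other 3 windows held none. The windows are Itga8 at chr2:12301945-12302194 (minus strand), Itga1 at chr13:115101965-115102214 (minus strand), Itga11 at chr9:62677605-62677854 (plus strand) and Itgb5 at chr16:33829415-33829664 (plus strand).
Itga8: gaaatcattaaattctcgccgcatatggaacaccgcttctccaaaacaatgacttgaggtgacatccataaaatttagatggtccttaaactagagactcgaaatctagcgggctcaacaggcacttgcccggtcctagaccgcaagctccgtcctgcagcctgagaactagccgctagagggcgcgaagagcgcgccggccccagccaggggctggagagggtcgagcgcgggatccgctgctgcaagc
Itga1: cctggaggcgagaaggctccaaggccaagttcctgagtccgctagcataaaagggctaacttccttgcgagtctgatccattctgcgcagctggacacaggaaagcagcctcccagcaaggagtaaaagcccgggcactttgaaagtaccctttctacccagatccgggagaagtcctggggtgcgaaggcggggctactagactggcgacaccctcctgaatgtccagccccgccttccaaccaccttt
Itga11: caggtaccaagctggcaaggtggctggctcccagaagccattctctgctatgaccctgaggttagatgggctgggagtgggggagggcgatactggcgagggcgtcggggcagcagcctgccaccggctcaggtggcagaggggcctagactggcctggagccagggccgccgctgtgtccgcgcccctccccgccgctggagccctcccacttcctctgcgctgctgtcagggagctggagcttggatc
Itgb5: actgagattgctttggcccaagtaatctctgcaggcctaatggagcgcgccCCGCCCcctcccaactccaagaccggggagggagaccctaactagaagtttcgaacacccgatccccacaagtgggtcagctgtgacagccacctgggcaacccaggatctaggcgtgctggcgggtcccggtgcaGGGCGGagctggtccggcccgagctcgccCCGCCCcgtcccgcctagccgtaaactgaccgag
A GC box, searched on both strands, lay in the windows of 3 of the 8 genes (Itga5, Itgb1 and Itgb5), and in 32.7% of the 32851 promoter windows of that length. The MCAT motif CATTCC lay in the window of Itgb1 alone among the 8, against 12.6% of all windows. The CArG box, the site known for serum response factor in smooth muscle genes, had no match in the 8 windows and a match in 1.47% of all windows. The GC content of the 8 windows was 55.6% to 68.4%, above the median of 52.4% over all promoters. These letters describe the windows only, and a match is not a site in use.

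The level of a gene in a cell is its reads per 500000 endogenous reads. For each cluster the cells of every line with at least 3 cells were averaged first, and the mean ± SD over those lines is given. A level per kb of exon is used wherever genes are compared with each other. Endogenous reads per cell ranged from 48455 to 1433402 with a median of 212483, and the medians were 128369 in cluster 10, 256725 in cluster 5 and 108489 in cluster 4. The 9 mural markers summed to 8133 to 12820 in the lines of cluster 10, to 435 to 753 in cluster 5 and to 64.5 to 169.6 in the other fibroblast clusters as a pool, and no marker of that list was at 0. The 9 fibroblast markers summed to 557 to 2224 in cluster 10. They summed to 15370.5 or more in cluster 5 and to 15536 or more in the other fibroblast clusters as a pool. In the test given below 2 of these 9 were higher and 4 lower in cluster 5 than in that pool. All genes were called at 0.384% and 0.545% in these directions. The 5 markers of fibroblasts beneath the epithelium summed to 1017 to 3133 in cluster 5 and to 36.6 to 138.8 in that pool. The study had drawn several of these markers from data that include these cells, so the sums are no independent check of the labels. Cluster 4 had lower fibroblast marker sums than every other fibroblast cluster, 7110 and 11282 in its 2 lines against 14569 or more. Its mural markers summed to 45.3 and 409, and a line of cluster 8 reached 657. Its 5 glial markers summed to 11.5 and 13.4, and a line of cluster 7 reached 48.9. In the 3 classes the 6 endothelial markers summed to between 8.56 and 59.1 and the 4 platelet markers to at most 1.80. Single lines reached 121.4 for the 7 urothelial markers and 35.5 for the 6 leukocyte markers in cluster 5, and 62.3 for the 4 mesothelial markers in cluster 10. The part of these cells in the results was not tested.

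The cell classes differed in which of the 7 alpha subunits they held. Shares below are of the summed level of these 7, or of the 3 beta subunits, and leave out the other 17 integrin genes. In cluster 10, Itga7 made up 41.95% ± 21.9 (SD, n = 4 lines) of the summed alpha level per kb, Itga8 26.9% ± 7.92 and Itga1 9.05% ± 7.20. In cluster 5, Itga11 alone made up 75.8% ± 12.9 (n = 4), followed by Itga5 with 19.6% ± 13.8. Itga5 had the highest mean share in clusters 1, 3, 7, 8, 9 and 11, between 54.3% and 66.5%, and Itga11 in cluster 6 with 47.4% ± 31.2 (n = 5). In cluster 2 Itga5 also had the highest mean share, 31.1% ± 39.6 (n = 5), but 13.9% without 3 Acta2GFP cells, against 35.4% for Itga11. The 2 lines of cluster 4 differed, with 68.6% Itga7 in Cspg4dsRED (17 cells) and 68.6% Itga5 in PdgfrbGFP (4 cells), and 67.1% of the Itga7 reads of that cluster came from 1 cell. In clusters 6 and 9 the order came from 3 cells of 1 line. Without the 3 Cspg4dsRED cells of cluster 6, all of whose alpha level was Itga11, the mean shares were 34.2% for Itga11 and 44.5% for Itga5 (n = 4 lines). Without the 3 C57BL6 cells of cluster 9, where Itga5 made up 95.1%, the single line left (Cspg4dsRED, 85 cells) had 49.6% Itga11 and 37.98% Itga5. The summed alpha level per kb was 106.05 ± 68.6 in cluster 5, 64.1 ± 18.5 in cluster 10 and 21.3 ± 6.58 in the other fibroblast clusters, and the first of these overlapped the second in its spread.

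**Figure D1:**
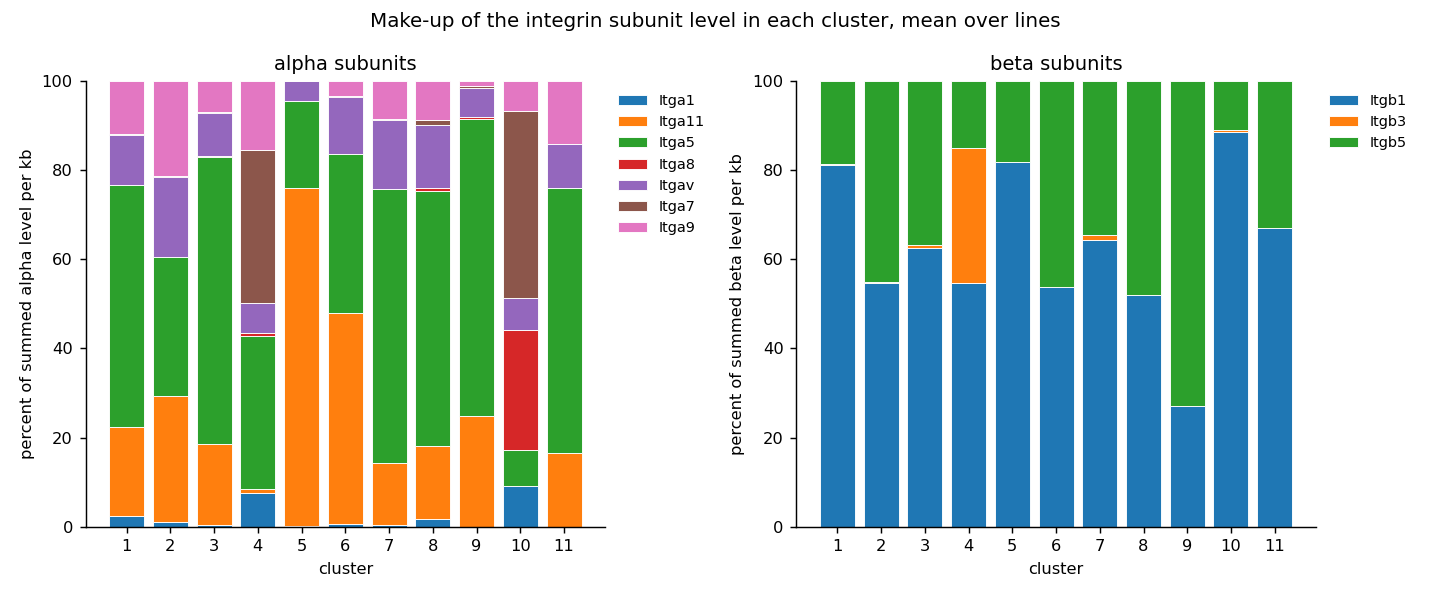
Makeup of the 7 alpha subunits and of the 3 beta subunits in each cluster, as the percent of their summed level per kb of exon. Values are averaged over mouse lines (vertical axis, percent, and horizontal axis, cluster), and other integrin genes are left out. Itga7 and Itga8 fill most of the alpha bar in cluster 10, Itga11 fills 75.8% in cluster 5, and Itgb5 exceeds Itgb1 in cluster 9.

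Among the 3 beta subunits, Itgb1 made up 88.5% ± 11.3 (n = 4) of their level per kb in cluster 10 and 81.8% ± 17.8 (n = 4) in cluster 5. In cluster 9 the order was the other way, with 72.9% ± 4.73 for Itgb5 and 27.1% ± 4.73 for Itgb1. That cluster had 85 of its 91 cells from Cspg4dsRED, and its other line with a level, C57BL6, had 3 cells there, so cluster and line cannot be told apart. Cspg4dsRED had more Itgb5 than Itgb1 per kb in other fibroblast clusters too, with 112.3 against 20.2 in cluster 2, 53.2 against 30.3 in cluster 6, 52.7 against 23.2 in cluster 7 and 135.4 against 42.7 in cluster 8, but not in clusters 4 and 5. The same order was seen in Acta2GFP in cluster 6 (56.8% Itgb5) and in PdgfraGFP in cluster 8 (57.8%). The summed beta level per kb was 117.04 ± 49.2 in cluster 10, 54.6 ± 27.6 in cluster 5 and 83.6 ± 13.8 in the rest.

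**Figure D2:**
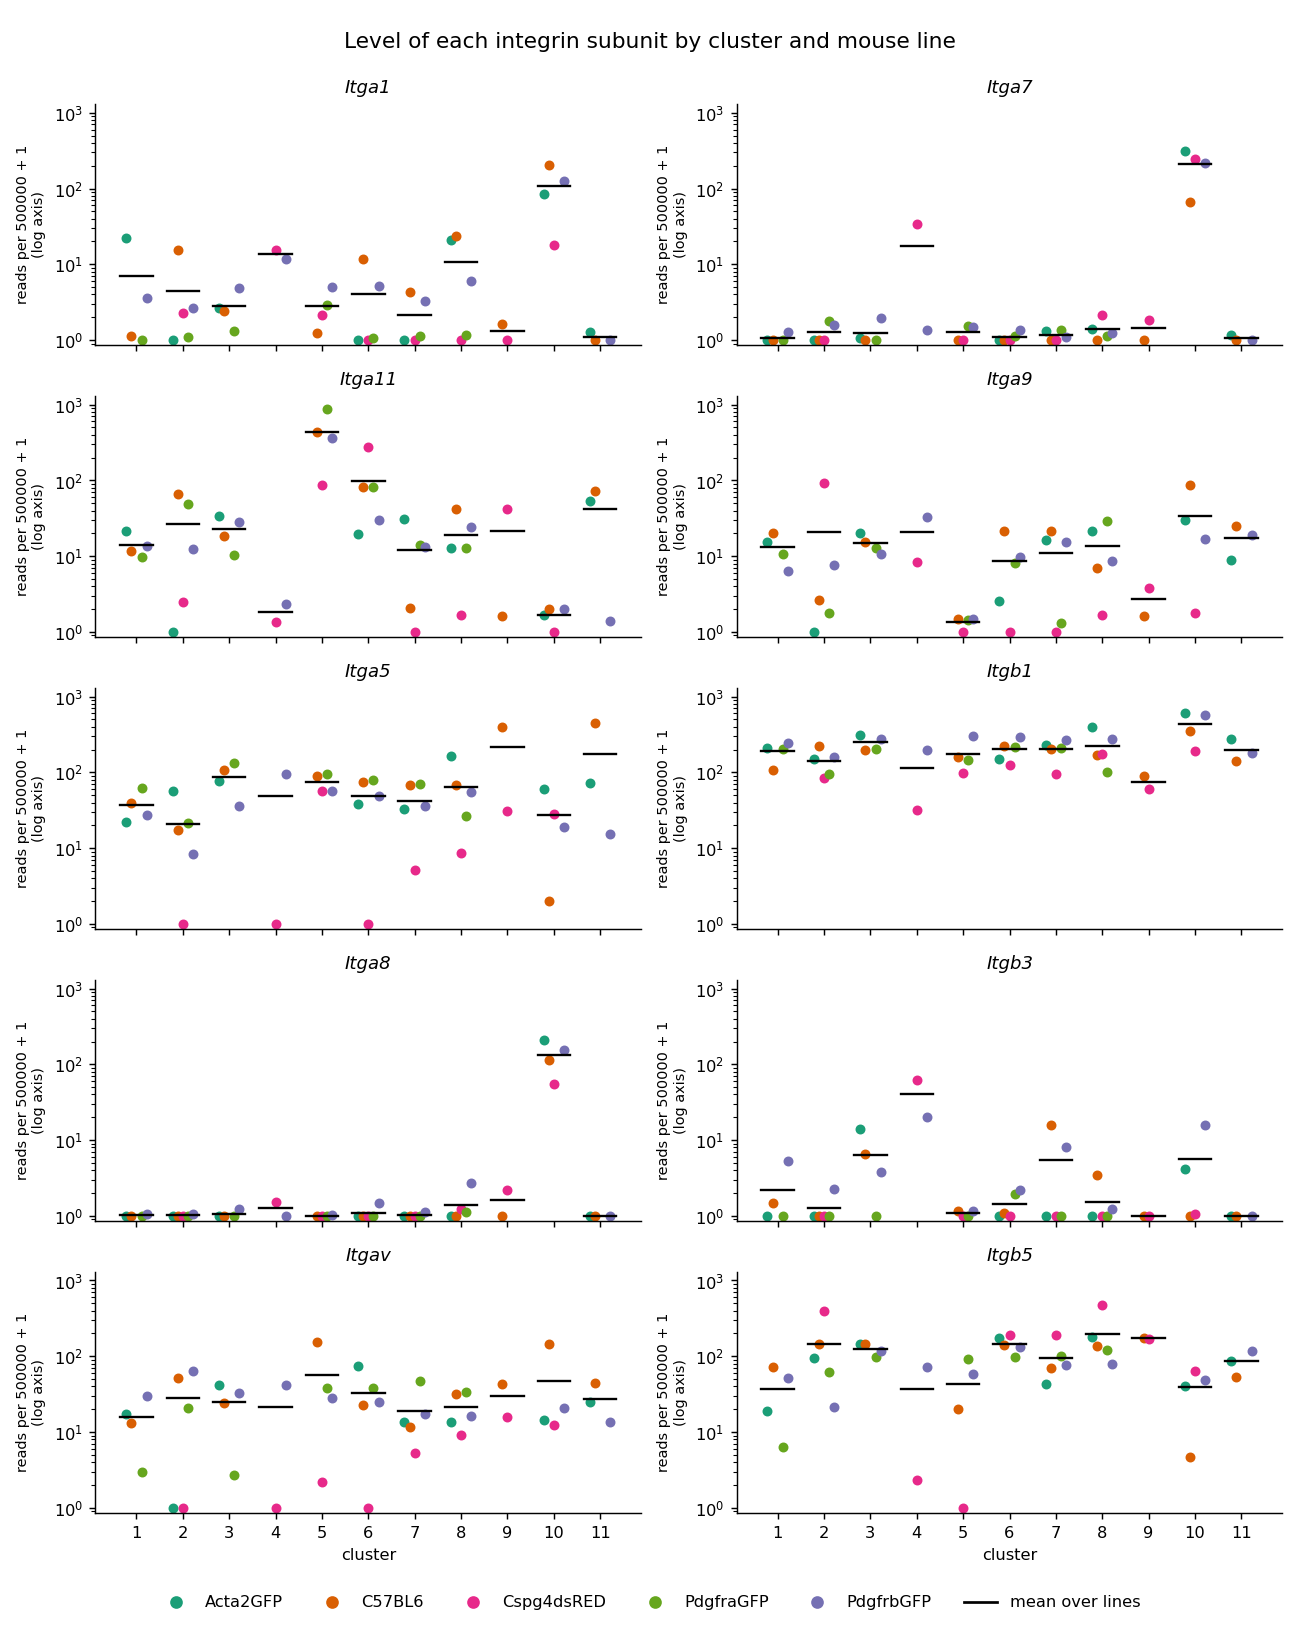
Level of each of the 10 genes in the 11 clusters (reads per 500000 endogenous reads of a cell, logarithmic scale), with a point for each mouse line. Itga7 and Itga8 lie far higher in cluster 10 than in the others, Itga11 is highest in cluster 5, and Itgb1 is present in all clusters.

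To ask which subunits set mural cells apart, reads were summed per line and class, and cluster 10 was compared with all fibroblast clusters together in the 4 lines that held both, with 1207 fibroblasts. Itga7, Itga8 and Itga1 were higher in cluster 10, and Itga11 was lower, while the other 6 genes did not pass. A gene was called when its edgeR adjusted p was under 0.05 and its level at least doubled or halved (a log2 fold change of 1 or more in size). Of 16092 genes tested, 6.35% were called, 2.24% higher and 4.11% lower, beside 3 higher and 1 lower of the 10 integrin genes. The median log2 fold change was −0.93 over all genes and 0.35 over the 10 genes, so a gene at 0 on this scale stood above the median gene. Of the called genes 35.3% were higher, and 70.5% with the median gene set to 0. The clusters were made from these counts, so each p below measures how far a difference repeated over lines and is no independent evidence of it.

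Itga7, the laminin receptor subunit, had levels in cluster 10 of 316.5 in Acta2GFP, 65.8 in C57BL6, 246.5 in Cspg4dsRED and 216.96 in PdgfrbGFP. In the fibroblasts of the same lines the levels were 0.149, 0, 4.69 and 0.462. The lowest line of cluster 10 was thus above the highest of the fibroblasts. The log2 fold change of Itga7 was 9.60 (SE 1.21, adjusted p = 2.62e-05), from 10196 reads against 399. Its reads were spread over 76.8% of the cells of cluster 10, with a median cell level of 105.5. The exon sequence of Itga7 shares 9 bases with Mettl7b on the opposite strand, a gene with 61 reads in all.

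In cluster 10 the levels of Itga8 were 210.2 in Acta2GFP, 114.1 in C57BL6, 53.5 in Cspg4dsRED and 153.6 in PdgfrbGFP. The fibroblasts of the same lines had 0, 0, 0.837 and 0.442. Again no line overlapped. The log2 fold change of Itga8 was 10.32 (SE 1.65, adjusted p = 0.000400). It came from 4446 reads in cluster 10, and since 2 of the lines had no fibroblast read its size depends on the small count added by the fit. A read was present in 57.6% of its cells, and the median cell level was 7.28 against a 90th percentile of 347. Exons of Itga8 overlap 372 bases of E030013I19Rik on the opposite strand, which had 966 reads in all, and the strand setting of the counting is not given in the sources used here.

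Itga1, a collagen receptor subunit, was at 84.4 in Acta2GFP, 202.9 in C57BL6, 16.8 in Cspg4dsRED and 124.1 in PdgfrbGFP in cluster 10. Fibroblast levels of Itga1 in these lines were 3.75, 5.52, 1.83 and 3.63. Cspg4dsRED was low in both classes, and within it the order was the same. The log2 fold change was 4.35 (SE 0.94, adjusted p = 0.00690), from 2950 against 2599 reads. Without PdgfrbGFP the adjusted p of Itga1 was 0.0945, with a log2 fold change of 4.09, and over the alternatives tried it ran from 5.14e-08 to this value. Reads of Itga1 came from 42.4% of the cells of cluster 10, and the median cell had none.

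Itga11, the other collagen receptor subunit of the set, was at 0.653 in Acta2GFP, 1.00 in C57BL6, 0 in Cspg4dsRED and 1.03 in PdgfrbGFP in cluster 10. In the fibroblasts Itga11 was at 35.2, 60.2, 33.3 and 37.7. All 4 lines were lower in cluster 10, with a log2 fold change of −6.54 (SE 1.52, adjusted p = 0.0120) from 26 reads against 28617. The call rested on Cspg4dsRED, since without that line the log2 fold change of Itga11 was −5.57 with an adjusted p of 0.100. Both Itga1 and Itga11 also missed the threshold against the fibroblasts whose plate row and column held no cluster 10 cell, with log2 fold changes of 5.48 and −7.04 and adjusted p of 0.0530 and 0.149, in a fit that called 2.20% of all genes in place of 6.35%. Over the alternatives the adjusted p of Itga11 ran from 1.37e-07 to this 0.149, and those of Itga7 and Itga8 stayed at 0.0143 or less.

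Itgb1, the common partner, was at 609 in Acta2GFP, 349 in C57BL6, 189.3 in Cspg4dsRED and 576 in PdgfrbGFP in cluster 10, and at 283.5, 189.7, 73.2 and 272.4 in the fibroblasts. It was higher in 4 of 4 lines, although Cspg4dsRED in cluster 10 was below the fibroblasts of the other 3 lines. The log2 fold change was 1.01 (SE 0.42, adjusted p = 0.154), so Itgb1 was not called. With the median gene set to 0 its log2 fold change was 1.94 with an adjusted p of 0.00365, limma-voom gave 1.10 with an adjusted p of 0.0183, and over all alternatives for Itgb1 the adjusted p ran from 0.00365 to 0.707.

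The remaining 5 genes did not pass either. Itgb5 was lower in 4 of 4 lines, with a log2 fold change of −2.01 (SE 0.82, adjusted p = 0.147), and its levels in cluster 10 ran from 3.62 to 62.6 against 92.8 to 184.5 in the fibroblasts of these lines. Itga5 had −1.40 (SE 1.15) and Itga9 0.78 (SE 1.22), without a call. By mean cell level Itga5 was higher in cluster 10 in Cspg4dsRED alone (27.3 against 20.97) and Itga9 in 3 of 4 lines. Itgav, which joins all 3 beta subunits, had −0.07 (SE 1.04) and took either sign under the alternatives. Itgb3 had −1.78 (SE 1.93).

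**Figure D3:**
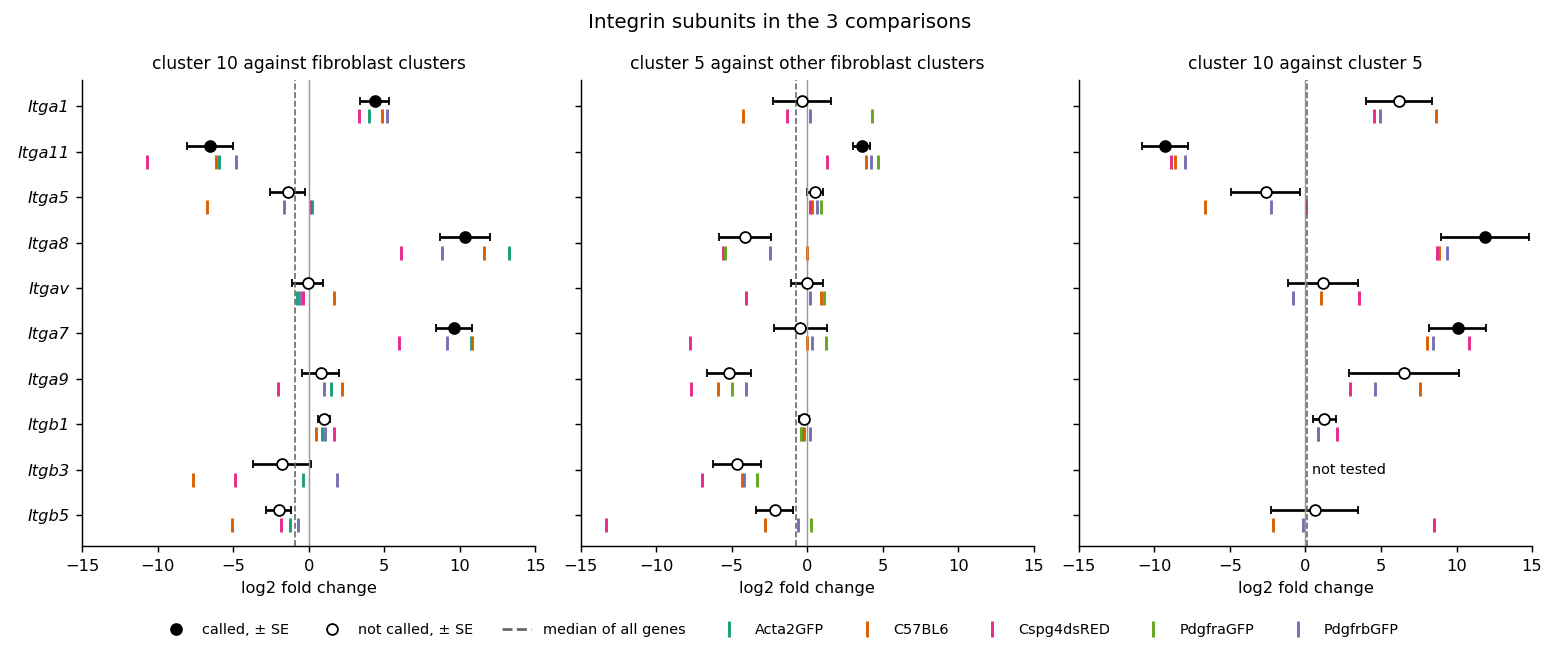
Log2 fold changes of the 10 genes in the 3 comparisons of cell classes (horizontal axis, log2; bars, standard error from the edgeR fit; vertical dotted line, median of all genes tested), with called genes filled. Itga7 and Itga8 are filled on the right in both comparisons of cluster 10, and Itga11 is filled in all 3.

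Cells were next counted by the presence of a read at equal depth, 50000 endogenous reads drawn from each cell, for which 6 cells were too shallow. Itga7 was seen in 72% of cluster 10 (exact 95% interval 63.3% to 79.7%) and in 3.04% of the fibroblasts (2.19% to 4.10%). The shares of Itga8 were 50.4% (41.3% to 59.5%) and 1.48% (0.909% to 2.28%). Itga1 was seen in 37.6% and 7.42%. These shares cover counting error only, and without thinning they were 76.8%, 57.6% and 42.4% in cluster 10. By line, Itga8 was seen in 71.1% of 45 PdgfrbGFP cells and in 33.8% of 65 Cspg4dsRED cells of cluster 10, and Itga1 in 66.7% and 15.4%, so the lines differed in these shares as they did in level.

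Within cluster 10, Itga7 and Itga8 were seen together in 40.8% of the cells (32.1% to 49.9%), and at least 1 of them in 81.6% (73.7% to 87.96%). Itga1 and Itga7 were together in 29.6%. At least 2 alpha subunits of the 7 were seen in 62.4% of cluster 10 (53.3% to 70.9%), 65.8% of cluster 5 (54.01% to 76.3%) and 36.4% of the other fibroblasts (33.7% to 39.1%). Across the cells of cluster 10 the levels of Itga7 and Itga8 had a Pearson correlation of 0.09 over 65 Cspg4dsRED cells and of 0.01 over 45 PdgfrbGFP cells, given as a description of sparse counts. Itga8 and Myh11, the smooth muscle myosin, had correlations of −0.08 and 0.49 in these lines, and Itga8 and Rgs5, a pericyte marker, −0.09 and −0.57, so the lines gave different pictures.

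**Figure D4:**
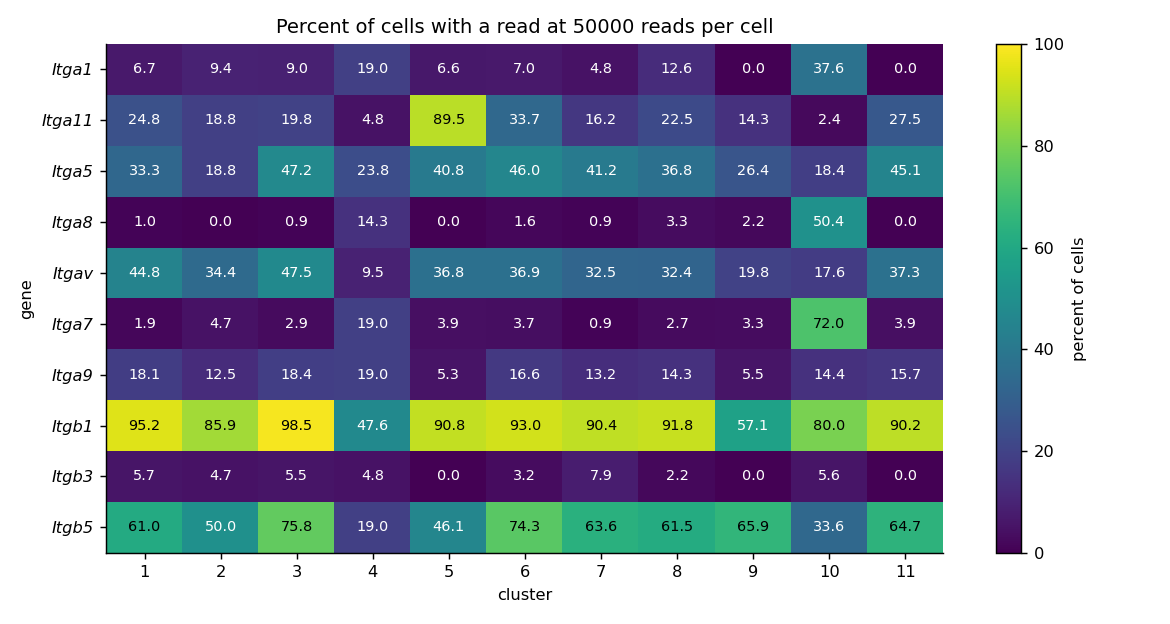
Percent of the cells of each cluster with a read of each gene after thinning to 50000 endogenous reads. Itga7 (72%) and Itga8 (50.4%) stand out in cluster 10 and Itga11 (89.5%) in cluster 5. Itgb1 is at 47.6% in cluster 4, at 57.1% in cluster 9 and at 80% or more in every other cluster.

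The next question was which subunits mark the fibroblasts beneath the epithelium. Cluster 5 was compared with the other fibroblast clusters in 4 lines (76 and 1161 cells), and Itga11 alone among the 10 genes was called. In this comparison 0.929% of 16145 genes were called, 0.384% higher and 0.545% lower, and the median log2 fold change was −0.77 over all genes and −0.40 over the 10 genes. Higher genes made up 41.3% of those called, and 75.3% with the median gene set to 0. In cluster 5 Itga11 had levels of 433 (C57BL6), 87.2 (Cspg4dsRED), 874 (PdgfraGFP) and 366 (PdgfrbGFP), in that order, against 27.6, 32.1, 35.4 and 21.4 in the other fibroblasts. The lowest line of cluster 5, Cspg4dsRED with 3 cells, was still above each of these. The log2 fold change of Itga11 was 3.61 (SE 0.55, adjusted p = 0.00793), higher in 4 of 4 lines. The 76 cells of cluster 5 held 18984 of its reads and the 1161 others 15204.

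Itga11 was seen in 89.5% of the thinned cells of cluster 5 (80.3% to 95.3%), in 21.6% of the other fibroblasts (19.4% to 23.99%) and in 2.40% of cluster 10 (0.498% to 6.85%). Its median cell level in cluster 5 was 377. PdgfrbGFP gave a level of cluster 5 on 3 plates, and these were 304.6, 448 and 367, so the value did not come from 1 plate. Itga5, the fibronectin receptor subunit and next in level per kb, was seen in 40.8% of cluster 5 and together with Itga11 in 38.2%. Its levels were 89.8, 56.6, 93.2 and 55.1 in C57BL6, Cspg4dsRED, PdgfraGFP and PdgfrbGFP, against 90.3, 20.2, 60.2 and 38.7 in the other fibroblasts, with a log2 fold change of 0.52 (SE 0.51, adjusted p = 0.797).

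Itga9, Itgb3, Itga8 and Itga7 were at or near 0 in cluster 5 without a call. Itga9 had levels of 0.484, 0, 0.458 and 0.481 in C57BL6, Cspg4dsRED, PdgfraGFP and PdgfrbGFP, against 14.7, 5.90, 7.87 and 9.76 in the other fibroblasts. The groups did not overlap, and the log2 fold change was −5.18 (SE 1.47, adjusted p = 0.169) from 17 reads against 6740. DESeq2 gave −4.90 for Itga9 with an adjusted p of 1.23e-05, and over the alternatives its adjusted p ran from 1.23e-05 to 0.394. Itgb3 had 7 reads against 2460 and a log2 fold change of −4.65 (SE 1.57, adjusted p = 0.219). Itga8 had 1 read in the 76 cells, and no thinned cell held one, with an exact 95% interval up to 4.74% (3 counts of 76 cells are 3.95%). Itga7 was at 0.532 or less in each line. Itgb1, with levels of 159.9, 96.5, 143.5 and 296.9, had a log2 fold change of −0.19 (SE 0.34, adjusted p = 0.897).

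Clusters 10 and 5 were then compared directly in the 3 lines that held both. These sums are part of the comparisons above, so the values are not independent of them. Of 13519 genes 1.86% were called, 1.15% higher and 0.703% lower in cluster 10, and the median log2 fold change was 0.12. Itga7 was higher in cluster 10 by a log2 fold change of 10.08 (SE 1.90, adjusted p = 1.80e-05), from 8799 reads against 14. Itga8 had 11.87 (SE 2.93, adjusted p = 0.00409), from 3685 reads against 1, so its size depends on the small count added by the fit. Per endogenous read the ratio was 3682 with a 95% counting interval of 661 to 145490, which takes reads as independent molecules and leaves out the spread over lines. Itga8 lost its call without PdgfrbGFP (12.15, adjusted p = 0.639), the highest adjusted p over its alternatives, of which the lowest was 9.79e-08. Itga11 had −9.30 (SE 1.499, adjusted p = 1.33e-07), from 24 reads against 13586.

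Itga1, the other collagen receptor subunit, was at 202.9 in C57BL6, 16.8 in Cspg4dsRED and 124.1 in PdgfrbGFP in cluster 10, and at 0.226, 1.16 and 3.94 in cluster 5, so it was higher in 3 of 3 lines. The edgeR test of Itga1 in this comparison missed the threshold (6.20, SE 2.17, adjusted p = 0.174), and over the alternatives its adjusted p ran from 0.000170, with sums per plate and line, to 0.834. Itgb1 had 1.25 (SE 0.79), Itga9 6.54 (SE 3.63), Itgav 1.14 (SE 2.33), Itgb5 0.60 (SE 2.86) and Itga5 −2.64 (SE 2.30), with no call. Itgb3 had too few reads for the test.

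Among the 9 fibroblast clusters without clusters 5 and 10, 1 joint test per gene asked whether the level differed between any of them. Over 14776 genes 2.54% differed, and of the 8 integrin genes with enough reads only Itgb3 did (F = 4.52, adjusted p = 0.0433). The joint call for Itgb3 did not survive the loss of most lines, with an adjusted p of 0.153 without Acta2GFP, 0.117 without C57BL6, 0.242 without Cspg4dsRED and 0.309 without PdgfrbGFP, and it was 0.0354 without PdgfraGFP. Itga7 and Itga8 were below the filter on counts. The adjusted p was 0.140 for Itga1, 0.141 for Itga5, 0.393 for Itgb5, 0.622 for Itga11 and 0.958 for Itgb1. Itga9 and Itgav were at 1.00.

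Itgb3 was highest in cluster 4, with a mean level of 40.04 ± 29.1 (SD, n = 2 lines), 5.30 in cluster 3 and no read in clusters 9 and 11. Set against the mean of the other fibroblast clusters, cluster 4 was higher by a log2 fold change of 8.72 (SE 1.99, adjusted p = 0.0245), the only call for the 10 genes among the single clusters, where 0.595% of all pairs of gene and cluster, and 0.42% of the genes for a higher level in cluster 4, were called. All reads behind it lay in 2 of the 23 cells, a Cspg4dsRED cell at a level of 1031 and a PdgfrbGFP cell at 77.7. Neither cell had a read of the platelet markers, and their mural marker sums were 378 and 12.54. With thinned cells the log2 fold change was 2.13 and the adjusted p 0.577, and the adjusted p of Itgb3 was 0.762 without Cspg4dsRED and 0.190 without PdgfrbGFP, so the call rested on these 2 cells.

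The other subunits varied between fibroblast clusters without passing. Nearest to a call was Itga1 in cluster 4, with a log2 fold change of 6.67 (SE 1.73, adjusted p = 0.0604), levels of 14.3 in Cspg4dsRED and 10.8 in PdgfrbGFP, and reads in 5 of 23 cells, and it was called without Acta2GFP. Itga11 had levels of 18.5 to 272.4 over 5 lines in cluster 6 (mean 96.4 ± 102.5), and a log2 fold change of 3.03 there with an adjusted p of 0.388. Itga5 had 400 and 30.2 in the 2 lines of cluster 9, and 442, 72.3 and 14.6 in the 3 lines of cluster 11. The high value of Itga5 in each came from C57BL6, with 3 cells there, and the 272.4 of Itga11 in cluster 6 from 3 cells of Cspg4dsRED. Itgb5 was at 171.2 ± 5.76 in cluster 9 and 198.10 ± 161.995 in cluster 8. By the mean over lines Itgb1 was lowest in cluster 9 with 74.1 ± 20.0 and highest of these clusters in cluster 3 with 247.97 ± 58.6. By the share of thinned cells with a read Itgb1 was lowest in cluster 4, with 47.6% against 57.1% in cluster 9. An alpha subunit was seen without Itgb1 in 20.9% of the cells of cluster 9 and in 5.35% of all cells of these 9 clusters.

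A few fibroblasts held reads of Itga7 and Itga8, and these were counted by the position of the well. Fibroblasts whose plate row and column held no cluster 10 cell had an Itga7 read in 0.574% of thinned cells (3 of 523, 0.118% to 1.67%). The share was 3.12% with 1 to 4 such cells (1.94% to 4.73%) and 11.2% with 5 or more (6.65% to 17.3%). Itga8 followed the same order with 0.382%, 1.63% and 4.61%, whereas Itga1 had 8.03%, 6.09% and 11.2%. Itga9, which was not called in cluster 10, went from 11.5% over 16.5% to 17.8%, and Itga11 from 27.9% over 25.4% to 17.1%. Within plates the share of Itga7 was higher with a cluster 10 neighbour on 5 of 6 plates, for instance 8.89% against 1.61% (16 cells and 1 cell with a read) and 4.10% against 0.840% (5 and 2 cells). On 2 of these 5 plates the group without a neighbour had only 8 and 16 cells, none with a read, and on the last plate no fibroblast held a read. Itga8 was higher on 4 of 6 plates and lower on 1, and Itga1 higher on 2 and lower on 4. The part of the plate position in these shares was not tested further. Itga7 and Itga8 kept their calls in cluster 10 against the fibroblasts without such a neighbour.

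**Figure D5:**
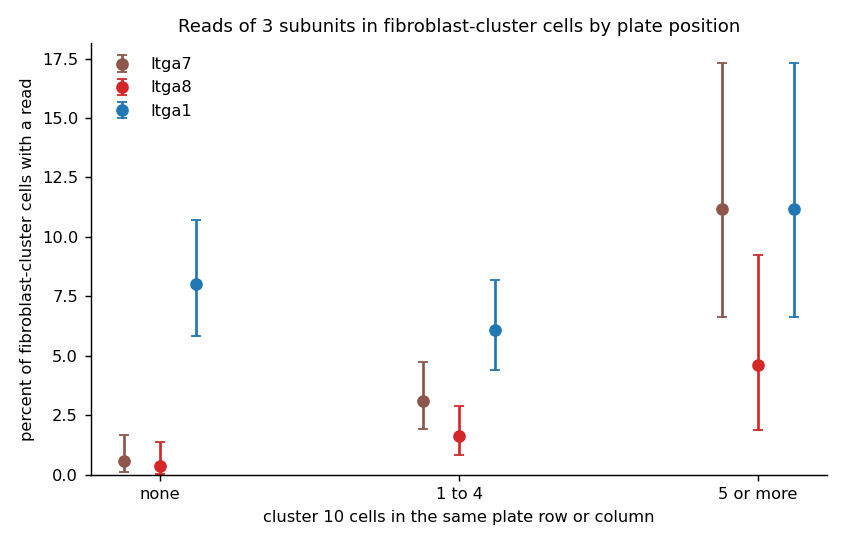
Percent of fibroblasts with a read of Itga7, Itga8 or Itga1 after thinning, by the number of cluster 10 cells in the same plate row or column, with exact 95% intervals. Itga7 goes from 0.574% to 11.2% and Itga8 from 0.382% to 4.61%, while Itga1 has no such order.

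The other 17 integrin genes gave no call in the comparisons of clusters 10 and 5, with 11 tested for cluster 10, 12 for cluster 5 and 7 between them by edgeR. The unadjusted p was under 0.05 for 3, 7 and 0 of these. DESeq2 called 3, 4 and 1, beside 18.6%, 8.83% and 6.07% of all genes, and limma-voom 0, 3 and 0, beside 10.5%, 3.23% and 3.12%. The joint test over the other fibroblast clusters called 0 of 9, by edgeR and by limma-voom, with 4 and 1 at an unadjusted p under 0.05, and 4 of 9 with no replicate block (Itga4, Itga6, Itgal and Itgb4), beside 7.26% of all genes, and 1 of 13 with sums per plate and line (Itgb4), beside 6.33%. For cluster 5 the count was 1 with no block, thinned cells, the median gene at 0 or Cspg4dsRED left out, beside 2.60%, 2.53%, 1.15% and 1.51% of all genes, and 2 with sums per plate, beside 3.74%. The largest difference of cluster 5 was that of Itgb8, a partner of Itgav, with 1088 reads in 24 of 76 cells against 717 reads in the other fibroblasts and a log2 fold change of 4.69 (SE 1.05, adjusted p = 0.0736). In single fibroblast clusters 2 calls were made for the 9 of these genes tested over 9 clusters, beside 0.595% of the pairs of gene and cluster over all genes. Itgb2l had no read. Itgb4, the partner of Itga6 in epithelial contacts, was higher in cluster 4 (8.98, SE 2.04, adjusted p = 0.0210), with 931 reads in 14 of 23 cells, in the cluster with the low fibroblast marker sums given above, where 0.42% of all genes were called higher. Itga4 was higher in cluster 7 (4.78, SE 1.02, adjusted p = 0.00842), with reads in 26 cells, 28.9% of them in 1 cell, in a cluster where 1.06% of all genes were called higher. Clusters 5 and 10, which had no part in that fit, had higher mean levels of Itga4, 27.8 ± 32.04 (SD, n = 4) and 15.04 ± 9.62 (n = 4), than the 12.001 ± 14.2 (n = 5) of cluster 7, with spreads that overlapped.

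The matrix genes that these receptors bind also differed between the classes. Of 27 integrin ligands tested, 3 were higher and 12 lower in cluster 10, beside 2.24% and 4.11% of all genes, with a median log2 fold change of −2.64 beside −0.93 for all genes. Lama5, the alpha chain of a basement membrane laminin, was higher in the class that held Itga7, with a log2 fold change of 9.80 (SE 0.82, adjusted p = 1.56e-07). The strongest decreases among the ligands were those of Svep1 (−5.95), Fbln5 (−5.20), Vcam1 (−4.97) and Lamb1 (−4.74). Fn1, which encodes fibronectin, had −4.49. Of these 15 calls 10 were left without Acta2GFP or without Cspg4dsRED, beside 3.68% and 3.00% of all genes, and Vcam1 was lost in both. Against fibroblasts without a cluster 10 neighbour 9 were left, beside 2.20%, and Vcam1 and Fn1 were among those lost. In cluster 5, 4 of 27 ligands were higher and 1 lower, beside 0.384% and 0.545% of all genes, with a median of 0.37. Tnc, a matrix protein that the study used to mark these fibroblasts, had a log2 fold change of 9.77 there (SE 0.50, adjusted p = 6.55e-06), and Fn1 had 1.70 (adjusted p = 0.00908). The collagen genes Col1a2 (1.07) and Col1a1 (1.02) were higher and Fbn1, which encodes fibrillin, was lower (−1.84). Both collagen calls were lost without PdgfraGFP and with no filter, thinned cells, DESeq2 or limma-voom, and Col1a2 also with no replicate block. Without PdgfraGFP 3 ligands were called, beside 0.713% of all genes. The count was 9 without Cspg4dsRED, beside 1.51%, and 13 of 26 with sums per plate and line, beside 3.74%. Fbn1 was not called with DESeq2 or with the median gene at 0. Itga9, a receptor subunit for tenascin-C, was near 0 in this cluster, as given above. Between clusters 10 and 5, 2 of 26 ligands were higher (Lama5 and Mfge8) and 7 lower, beside 1.15% and 0.703% of all genes, among them Tnc (−9.09), Fn1 (−5.38), Svep1 (−4.91) and Fbln5 (−4.86). Svep1 was not called without Cspg4dsRED, without PdgfrbGFP or with limma-voom, nor Mfge8 with DESeq2. Of the 26 ligands tested over the other fibroblast clusters 9 differed, beside 2.54% of all genes, including Col1a1, Fn1 and Postn. The count was 3 of 25 without PdgfrbGFP, 4 of 27 without C57BL6 and 5 of 24 without PdgfraGFP. All genes differed at 0.324%, 0.483% and 1.77% in these settings. Col1a1 was called with any line left out, whereas Fn1 was called only when Acta2GFP was the one left out, and Postn was lost without Acta2GFP, PdgfraGFP or PdgfrbGFP.

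Of 28 tested genes of the adhesion complex, which ties integrins to actin, 7 were higher in cluster 10 and none lower, with a median log2 fold change of 0.14. All genes were called at 2.24% and 4.11% in these directions. The count of 7 fell to 4 without Acta2GFP, Cspg4dsRED or PdgfrbGFP, where 3.68%, 3.00% and 3.48% of all genes were called in either direction. It was also 4 against fibroblasts without a cluster 10 neighbour, beside 2.20%, and 11 without C57BL6, beside 6.79%. The 7 genes included Actn1 (4.01, adjusted p = 0.0163), Flna (3.07, adjusted p = 2.40e-06), Lpp (2.11) and Lims1 (2.09). Cluster 5 had 1 called gene of 29, beside 0.929% of all genes, namely Vcl (2.15, adjusted p = 0.0185), which encodes vinculin and was not called with no replicate block. Between clusters 10 and 5, Tns1 (4.39) and Flna (3.67) of 28 were higher in cluster 10, beside 1.15% of all genes. Flna was called under every alternative, and Tns1 was not called without Cspg4dsRED, without PdgfrbGFP, with no filter or with limma-voom. No gene of this list differed over the other fibroblast clusters by the joint edgeR test, in which 2 of 28 had an unadjusted p under 0.05, and limma-voom gave the same counts of 0 and 2.

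For each of the 10 genes the 3 most alike patterns were taken from 9810 genes, by the Pearson correlation of log2 levels over 43 groups of line and cluster that share plates and depth. Itga8 was closest to Dgkg (0.99), Scn4b (0.98) and Olfr558 (0.98), and Itga7 to Rasl12 (0.95), Sncg (0.94) and Pln (0.94). Itga1 had lower values with Olfml2a (0.79), Cpe (0.78) and Kitl (0.77). Itga11 was closest to Thbs2 (0.73), Aldh1a1 (0.67) and Rbp4 (0.67). For Itgb1 the closest was Serinc3 (0.78), for Itgb5 Sod3 (0.76), for Itga5 Rusc2 (0.74), for Itgav Dek (0.71), for Itga9 Cpt1a (0.66) and for Itgb3 Meox2 (0.63).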

How the data were processed

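The authors deposited raw read counts, a single table with a column for each of the 1479 cells. Per the study's methods, 50-base single reads were trimmed, mapped to GRCm38 with TopHat2, freed of reads called doublets and counted with featureCounts. The annotation release is not given in the sources used here, and the authors had already removed cells of low quality. Symbols and exon lengths came from GENCODE M21.

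The mouse line was the unit, on the assumption that lines are separate mice, which the labels do not state. Line, sort and plate are partly confounded. Counts were summed per line and class (at least 3 cells) and tested with edgeR 4.0.16 in R 4.3.3 (TMM, filterByExpr, quasi-likelihood test, line as a block, Benjamini-Hochberg adjustment over all genes tested). DESeq2 1.42.0 and limma 3.58.1 served as alternatives. The edgeR fits were also run on simulated counts with the same spread for all genes and no line differences. That run cannot show how the fits do on these data. Shares carry exact (Clopper-Pearson) intervals, which cover counting error only, as does the limit of 3 counts set by a count of 0. The same sums enter several comparisons. A change in level cannot be told apart from a change in the share of cells that hold the RNA, except where shares are given.

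The 10 genes, the comparison lists and the tests were chosen with earlier results of these data known. Named were all 10 genes, other integrin genes that were called or had no read, up to 5 called ligand and adhesion genes of the largest fold change per comparison, and the 3 most similar genes by log2(level + 1) among genes with a mean level of at least 5. Itgb8, Mfge8, Myh11, Rgs5 and the genes named from the joint test were added after their values were seen. A gene that the rule would have named is not reported here. The makeup of the alpha subunits in clusters 6 and 9 with a line left out was added after the data were seen.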

Additional observations from a re-analysis of the deposited data

Results flagged for a closer look

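In 30 groups of 4 or 5 lines, 4 had a line far from the others by Dixon's test, and chance gives about 1 in 20 such groups. Itga7 in the fibroblast clusters without cluster 5 was at 4.796 in Cspg4dsRED and between 0 and 0.459 in the other 4 lines, and 100 of its reads in these clusters came from 1 cell of cluster 4. Itgav in cluster 10 was at 142.7 in C57BL6, which had 3 cells there, and between 11.4 and 20.0 in the other 3 lines. The remaining cases lay near 0. In cluster 5, Itga9 was at 0 in Cspg4dsRED, with 3 cells, and between 0.458 and 0.484 in the other lines, and Itga8 was at 0.0368 in PdgfrbGFP, from 1 read, and at 0 in the others. Which part the number of cells has in these values was not tested.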

How the results depend on the processing

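In the alternatives, 385 values of the 10 genes (87.1%) kept their side of the threshold and, for fold changes, their direction. The adjusted p of the joint test were counted with them and have no direction. Of the rest, 13 passed the threshold, 14 fell short of it, and 30 changed sign, each in a comparison where that gene was not called. For cluster 10 against the fibroblasts, where 6.35% of the genes tested were called, the figure was 17.04% with sums per plate and line, 18.6% with DESeq2, 10.5% with limma-voom, 10.95% with no replicate block and 2.20% with fibroblasts without a cluster 10 neighbour, where 2 integrin genes were called in place of 4. With a line left out it ran from 3.00% (without Cspg4dsRED) to 6.79%, with 3.48% without PdgfrbGFP and 3.68% without Acta2GFP, and 3 to 4 integrin genes were called. For cluster 5, with 0.929%, it was 0.862% of 28553 genes with no filter, 2.60% with no replicate block, 2.53% with thinned cells, 3.74% with sums per plate, 8.83% with DESeq2, 3.23% with limma-voom and 0.713% to 1.51% with a line left out. Here 2 integrin genes were called with no block, sums per plate or limma-voom (Itga11 and Itga9), 3 with DESeq2 (also Itgb3) and 1 with any line left out. Between clusters 10 and 5, with 1.86%, it was 4.73% with sums per plate (4 integrin genes in place of 3), 6.07% with DESeq2 (5), 3.12% with limma-voom, 3.09% with no block (4), 0.835% of 23242 genes with no filter and 1.14% to 2.34% with a line left out (2 to 3 integrin genes). Among the other fibroblast clusters, with 2.54%, it was 7.26% with no block, 1.68% with no filter, 1.92% with thinned cells, 6.33% with sums per plate and 0.324% to 1.77% with a line left out. There 0 integrin genes differed with thinned cells or limma-voom, 3 with sums per plate and 0 to 1 with a line left out, and in single clusters 0 pairs of integrin gene and cluster were called with thinned cells, 8 of 90 with sums per plate (5 of them Itgb5) and 0 to 2 with a line left out, beside 0.446%, 1.05% and 0.138% to 0.903% of the pairs over all genes. The cause of these changes was not tested.

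Signs changed as follows. For cluster 10 against the fibroblasts, Itgav (−0.07) had 0.17 with median-of-ratios scaling and with DESeq2, 0.63 with no replicate block, 0.86 with the median gene at 0, 0.054 with limma-voom and −0.64 to 0.20 with a line left out. Itgb3 had 0.26 with no block and Itga9 −0.55 with sums per plate. For cluster 5, Itgav (−0.04) had 0.061 with median-of-ratios scaling, 0.064 with DESeq2, 0.62 with no block, 0.20 with thinned cells and with limma-voom, 0.73 with the median gene at 0 and −0.54 to 0.74 with a line left out. Itga7 had 0.24 with sums per plate, 0.30 with the median gene at 0, 0.38 with DESeq2, 0.17 with limma-voom and −1.52 to 0.75 with a line left out. Itgb1 had 0.034, 0.58 and 0.089 with sums per plate, the median gene at 0 and limma-voom. Itga1 had 0.42 with the median gene at 0 and −1.67 to 1.02 with a line left out. Between clusters 10 and 5, Itgb5 had −0.25 with sums per plate and −0.95 to 3.27 with a line left out. Shares of cells with a read moved beyond their interval in 59.6% of cases when cells were not thinned or 3 reads were asked for, and levels moved beyond the SD in 4.23%. The comparisons of clusters 10 and 5 rest on 3 or 4 lines, with 3 cells in the smallest sums.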
